A study of Mus musculus with 12 samples.

Results

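The 10 genes described here encode transcription factors of the naive pluripotent state in mouse: Nanog, Esrrb, Klf2, Klf4, Klf5, Tfcp2l1, Tbx3, Nr0b1, Prdm14 and Zfp42. They were chosen by name, with earlier results of these data known. All 10 were among the 20529 genes listed and among the 20486 tested. RNA came from mouse embryonic stem cells of 129S6/SvEvTac background that carried the reporter GFP_5xT71BS and a stable FLAG-Cas9::T2A::Blasticidin construct. They were grown on gelatin in medium with serum and LIF and collected from triplicate wells. There were 4 groups of 3 libraries each, namely Tnrc6a overexpression in Trim71-/- cells, Tnrc6a overexpression in control cells, Cas9 in Trim71-/- cells and Cas9 in control cells. The Cas9 and reporter constructs were shared by all 4 groups according to the growth description. Trim71 (a TRIM-NHL protein) binds and represses mRNAs, and Tnrc6a works beside Argonaute in microRNA silencing, where it calls deadenylases to the target.

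Naive pluripotency is the state of the preimplantation epiblast, which mouse embryonic stem cells keep in culture as long as LIF signalling through Stat3 and a network of transcription factors hold each other active. Klf4 and Tfcp2l1 are known targets of Stat3, Esrrb is a target of Gsk3 and Wnt signalling through relief from the repressor Tcf7l1, and Nanog stands at the hub of the network. As cells leave the naive state these factors are switched off, and genes of the formative and primed epiblast come on.

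Library depth ran from 20758151 to 31552915 counts, and the 10 genes held from 10518 counts (Prdm14) to 257361 counts (Esrrb) over the 12 libraries, so none was near a detection limit. Tnrc6a RNA stood at 3197 to 3704 CPM (counts scaled to library size) in the Tnrc6a groups, against 131 to 152 CPM in the Cas9 groups. Trim71 RNA did not identify the genotype, at 233 to 251 CPM in Tnrc6a Trim71-/- libraries against 254 to 277 CPM in Tnrc6a control libraries, and at 264 to 291 CPM in Cas9 Trim71-/- libraries against 290.1 to 317 CPM in Cas9 control libraries. In 9 libraries the note on the input RNA disagrees with the title on which cells were used (HA-AVI-Tnrc6a with Upf1-/- for Tnrc6a Trim71-/-, HA-AVI-Tnrc6a with Ago2-/- for Tnrc6a control, and HA-AVI-Tnrc6a for Cas9 Trim71-/-). The titles and the overexpression tag were followed, so the Trim71-/- genotype rests on the titles. The labels give no clone or line for each group, so genotype and cell line cannot be told apart, and p-values measure the spread between wells. Of 10 general stem cell markers all 10 were listed, and Pou5f1, the factor that defines the pluripotent lineage, stood between 709.6 CPM (the mean of Tnrc6a control) and 1560 CPM (the mean of Cas9 Trim71-/-).

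The promoters of 4 members are printed because their genes span the differences reported below: Nanog and Zfp42 were the most abundant members, Tfcp2l1 is a Stat3 target that held a pair of matches, and Nr0b1 had the largest Tnrc6a difference. Each runs from 250 bases before to 50 bases after a RefSeq transcription start in GRCm38.p6, read on the gene's strand, and capitals mark motif matches found by search. RefSeq promoters were matched for 7 of the 10 members (not Klf5, Tbx3 or Prdm14), and for Nanog the first of 2 starts is shown.
Nanog promoter, chr6:122707239-122707538, plus strand: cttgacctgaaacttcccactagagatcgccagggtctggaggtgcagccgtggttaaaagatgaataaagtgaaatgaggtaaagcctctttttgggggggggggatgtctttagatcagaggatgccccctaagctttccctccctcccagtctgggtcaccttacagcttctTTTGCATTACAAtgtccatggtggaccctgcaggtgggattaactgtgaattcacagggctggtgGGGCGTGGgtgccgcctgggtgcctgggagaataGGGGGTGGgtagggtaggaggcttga
Tfcp2l1 promoter, chr1:118627695-118627994, plus strand: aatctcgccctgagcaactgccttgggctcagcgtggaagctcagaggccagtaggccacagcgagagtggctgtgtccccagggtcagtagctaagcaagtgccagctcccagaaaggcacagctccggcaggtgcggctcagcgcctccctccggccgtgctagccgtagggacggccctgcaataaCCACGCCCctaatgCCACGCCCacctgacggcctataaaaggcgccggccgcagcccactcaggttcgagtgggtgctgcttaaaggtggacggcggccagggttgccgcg
Zfp42 promoter, chr8:43306960-43307259, minus strand: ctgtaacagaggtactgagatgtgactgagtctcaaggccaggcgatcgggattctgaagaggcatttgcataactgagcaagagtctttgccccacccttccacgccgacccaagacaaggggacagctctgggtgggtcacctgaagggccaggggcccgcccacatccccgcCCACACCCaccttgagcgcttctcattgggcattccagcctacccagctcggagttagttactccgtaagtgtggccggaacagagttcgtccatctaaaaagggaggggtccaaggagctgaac
Nr0b1 promoter, chrX:86191525-86191824, plus strand: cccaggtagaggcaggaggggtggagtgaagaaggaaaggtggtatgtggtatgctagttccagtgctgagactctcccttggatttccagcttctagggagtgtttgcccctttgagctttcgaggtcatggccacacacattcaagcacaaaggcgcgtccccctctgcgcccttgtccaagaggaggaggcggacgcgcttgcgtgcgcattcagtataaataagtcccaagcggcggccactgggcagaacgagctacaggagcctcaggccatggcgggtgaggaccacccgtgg

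On both strands, 7 motifs were searched: a Kruppel-like factor box (GGGNGTGG), a Pou5f1-Sox2 composite motif, an estrogen-related receptor site (TCAAGGTCA), a Stat3 site (TTCCNGGAA), a Tfcp2l1 site, a Prdm14 site (GGTCTCTAA) and a T-box site (AGGTGTGA). The Nanog window held the composite on the minus strand at -75 to -64 (with the start base as 0) and a Kruppel-like box at -10 to -3 and at 24 to 31. In Tfcp2l1 the box occurred at -61 to -54 and at -47 to -40, and in Zfp42 at -75 to -68, each time on the minus strand. No 2 matches overlapped, and the windows of Esrrb, Klf2, Klf4 and Nr0b1 held none of the 7 motifs. Over 32851 mouse promoters of the same length, 17.6% held the box and 0.0365% the composite, while the estrogen-related receptor, Stat3, Tfcp2l1, Prdm14 and T-box sites occurred in 0.423%, 1.15%, 0.314%, 0.256% and 1.28%. The 7 members with a window split 3 to 4 by the box. A match describes letters only.

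Levels were compared between genes on the deposited RPKM scale, which is per length. Zfp42 was the most abundant member in 3 groups, at 514 ± 4.09 RPKM (SD, n = 3) in Tnrc6a Trim71-/-, 614 ± 9.61 RPKM in Cas9 Trim71-/- and 342 ± 7.69 RPKM in Cas9 control cells. In Tnrc6a control cells Nanog (222 ± 4.75 RPKM) and Zfp42 (222 ± 6.39 RPKM) overlapped at the top. Prdm14 was lowest in all 4 groups, between 7.70 ± 0.212 RPKM in Tnrc6a control and 18.5 ± 0.711 RPKM in Cas9 Trim71-/- cells. In Cas9 control cells the order was Zfp42, Nanog, Klf2, Esrrb, Klf4, Nr0b1, Tfcp2l1, Tbx3, Klf5 and Prdm14, with no overlap between neighbours. Cas9 Trim71-/- cells had the same order, with overlap of Tbx3 and Klf5 only. In both Tnrc6a groups Nr0b1 stood at rank 8, next to Klf5 with overlapping libraries, in place of rank 6 in the Cas9 groups. Tbx3, at rank 8 in both Cas9 groups, stood at rank 6 in Tnrc6a Trim71-/- cells and at rank 5 in Tnrc6a control cells, where it overlapped Esrrb. Klf4 came before Esrrb in both Tnrc6a groups, with overlap in Trim71-/- cells.

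**Figure D1:**
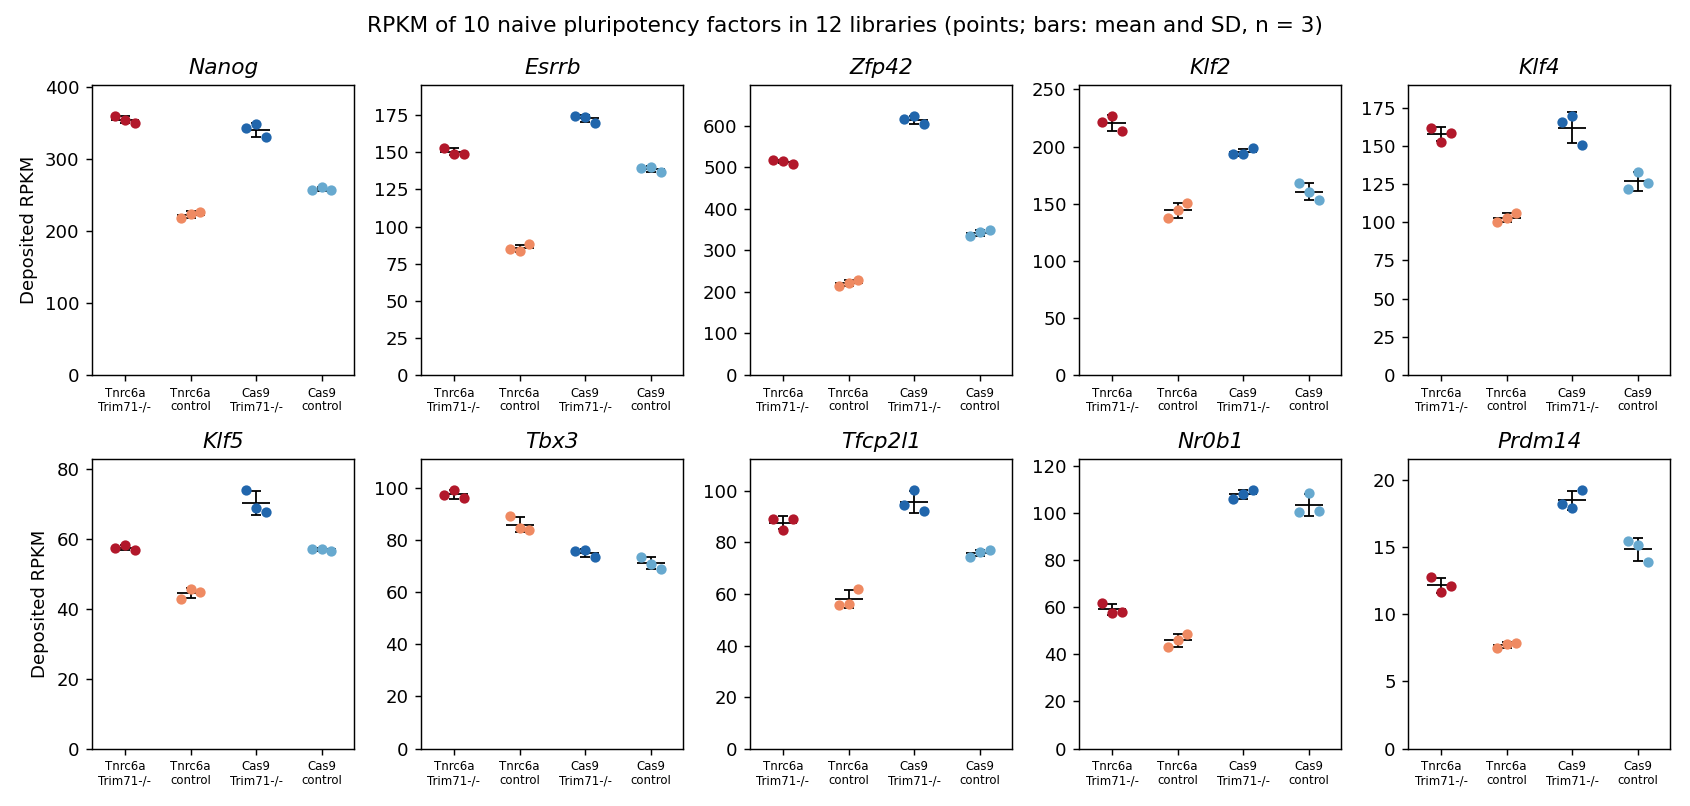
Deposited RPKM of the 10 naive pluripotency factors (y axis, from 0) in the 4 groups (x axis), with points for libraries and bars for the mean and SD of 3 libraries. In 9 of the 10 panels the Tnrc6a control libraries are the lowest of the 4 groups, and Tbx3 is highest in the Tnrc6a Trim71-/- group.

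Trim71-/- cells had higher levels of these factors than control cells under both overexpression conditions. With Tnrc6a, 10 of 10 members rose and none fell (edgeR adjusted p under 0.05), where 39.1% of all genes tested were called, 20% higher and 19% lower. With Cas9, 8 of 10 rose and none fell, where 36.1% of genes were called, 17.1% higher and 19.1% lower. The members' median log2 fold change was 0.61 with Tnrc6a and 0.32 with Cas9, beside medians over all genes of 0.0025 and -0.013. The summed level of the 10 members was 5472 ± 58.5 CPM in Tnrc6a Trim71-/- against 3465 ± 78.3 CPM in Tnrc6a control libraries, and 5829 ± 126 CPM in Cas9 Trim71-/- against 4457 ± 43.0 CPM in Cas9 control libraries (SD, n = 3 each). The sum of the 14 primitive endoderm markers went the other way. It was 536 ± 12.5 CPM in Tnrc6a Trim71-/- against 1764 ± 68.2 CPM in Tnrc6a control libraries, and 361 ± 2.98 CPM in Cas9 Trim71-/- against 911 ± 18.9 CPM in Cas9 control libraries. Of the 14 markers, 13 fell in each condition, and 1 rose with Cas9. The part of these markers in the members' difference was not tested. In these bulk samples, fewer cells of a type and less RNA per cell cannot be told apart.

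Most members had lower levels in the Tnrc6a groups than in the Cas9 groups. In Trim71-/- cells 6 of 10 fell, Klf2 and Tbx3 rose, and Klf4 and Nanog did not pass, where 62.9% of genes tested were called, 32% higher and 30.9% lower. In control cells 9 of 10 fell and Tbx3 rose, where 63.5% of genes were called, 30.4% higher and 33.1% lower. The members' median log2 fold change was -0.16 in Trim71-/- and -0.37 in control cells, beside 0.017 and -0.016 over all genes. At that background a count of members called in either direction says little by itself. By the same sums, the primitive endoderm markers were higher with Tnrc6a in both genotypes. The Tnrc6a comparison in a genotype and the Trim71-/- comparison with either construct share libraries, so their values below are set side by side only.

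**Figure D2:**
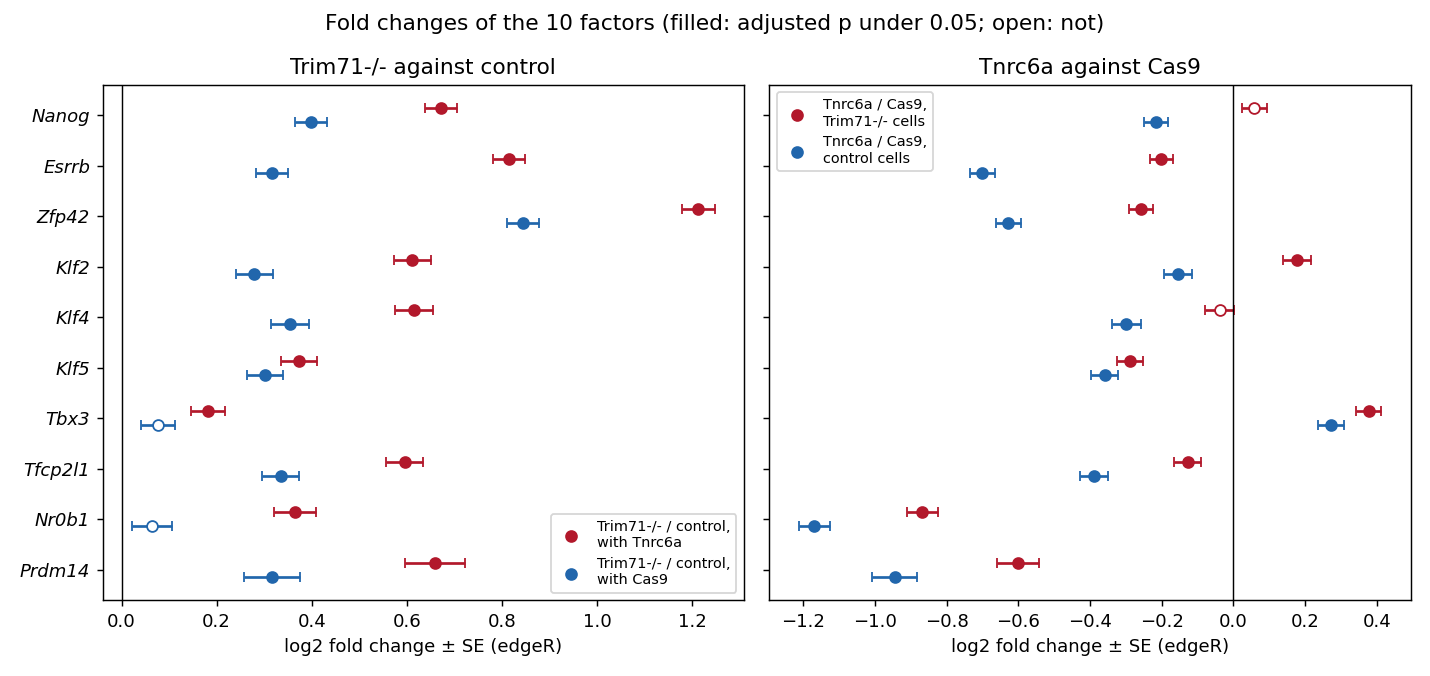
Log2 fold change ± SE (x axis, edgeR) of each factor (rows), left for Trim71-/- against control with Tnrc6a or Cas9 and right for Tnrc6a against Cas9 in Trim71-/- or control cells; filled points have adjusted p under 0.05. All 10 Trim71-/- changes with Tnrc6a are filled and above 0, while on the right Nr0b1 reaches -1.17 and Tbx3 lies above 0 in both genotypes.

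Nanog (chromosome 6, 122707489 to 122714633, GRCm38, ENSMUSG00000012396) encodes the homeodomain factor at the centre of the network. Nanog stood at 359, 353 and 349 RPKM in Tnrc6a Trim71-/- libraries, 217, 223 and 226 RPKM in Tnrc6a control, 342, 348 and 329 RPKM in Cas9 Trim71-/-, and 256, 261 and 256 RPKM in Cas9 control. The Trim71-/- libraries lay above their controls in both conditions without overlap, and the lowest libraries of all were those of Tnrc6a control. The Trim71-/- log2 fold change was 0.67 with Tnrc6a (SE 0.03, edgeR adjusted p = 1.8e-20) and 0.40 with Cas9 (SE 0.03, edgeR adjusted p = 4.01e-13). With Tnrc6a the log2 fold change in Trim71-/- cells was 0.06 and did not pass (SE 0.03, edgeR adjusted p = 0.127), although the 6 libraries did not overlap. In control cells Nanog fell with Tnrc6a (-0.22, SE 0.03, edgeR adjusted p = 5.45e-07). The call in Trim71-/- cells was gained with a stricter filter (0.08, adjusted p = 0.0267) and with DESeq2 (0.07, adjusted p = 0.0329).

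Esrrb (chromosome 12, 86361117 to 86521628, ENSMUSG00000021255) encodes an orphan nuclear receptor that binds many of the same enhancers. Its RPKM was 153, 149 and 149 in Tnrc6a Trim71-/- libraries, 84.6, 83.7 and 88.1 in Tnrc6a control, 174, 174 and 170.0 in Cas9 Trim71-/-, and 139, 140.0 and 137 in Cas9 control. The 4 groups were fully separated, with Cas9 Trim71-/- highest and Tnrc6a control lowest. The Trim71-/- rise was 1.76-fold with Tnrc6a (log2 fold change 0.82, SE 0.03, edgeR adjusted p = 1.12e-23) and 1.25-fold with Cas9 (0.32, SE 0.03, edgeR adjusted p = 1.49e-10). With Tnrc6a, Esrrb fell by 0.20 on the log2 scale in Trim71-/- cells (SE 0.03, edgeR adjusted p = 1.45e-06) and by 0.70 in control cells (SE 0.03, edgeR adjusted p = 6.81e-22).

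The Kruppel-like zinc finger factors Klf2, Klf4 and Klf5 overlap in their targets and can stand in for each other in stem cell self-renewal. Klf2 (chromosome 8, 72319033 to 72321656, ENSMUSG00000055148) stood at 221, 227 and 213 RPKM in Tnrc6a Trim71-/-, 138, 145 and 151 RPKM in Tnrc6a control, 193, 193 and 199 RPKM in Cas9 Trim71-/-, and 168, 161 and 154 RPKM in Cas9 control libraries. Tnrc6a Trim71-/- libraries were highest, and no 2 groups overlapped. Among the 10 members, Klf2 was the only one with Tnrc6a changes of opposite sign that both passed, a log2 fold change of 0.18 in Trim71-/- cells (SE 0.04, edgeR adjusted p = 9.45e-05) and of -0.16 in control cells (SE 0.04, edgeR adjusted p = 0.000566). Its Trim71-/- log2 fold change was 0.61 with Tnrc6a and 0.28 with Cas9 (SE 0.04 each, edgeR adjusted p = 2.2e-17 and 1.01e-07).

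Klf4 (chromosome 4, 55527143 to 55532466, ENSMUSG00000003032), a Stat3 target, stood at 162, 153 and 159 RPKM in Tnrc6a Trim71-/-, 100.4, 103 and 106 RPKM in Tnrc6a control, 166, 169.7 and 151 RPKM in Cas9 Trim71-/-, and 122, 133 and 126 RPKM in Cas9 control libraries. The Trim71-/- groups overlapped each other and stood above both controls. The Trim71-/- log2 fold change was 0.62 with Tnrc6a and 0.36 with Cas9 (SE 0.04 each, edgeR adjusted p = 8.24e-17 and 9.05e-10). With Tnrc6a the value in Trim71-/- cells was -0.04 (SE 0.04, edgeR adjusted p = 0.411), and in control cells Klf4 fell by 0.30 (SE 0.04, edgeR adjusted p = 1.87e-08). Without Cas9 Trim71-/- replicate 3, its lowest library in that group, the value in Trim71-/- cells was -0.09 and passed (adjusted p = 0.0405).

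Klf5 (chromosome 14, 99298691 to 99315036, ENSMUSG00000005148) had 57.5, 58.3 and 57.0 RPKM in Tnrc6a Trim71-/-, 42.8, 45.6 and 44.9 RPKM in Tnrc6a control, 74.1, 69.0 and 67.8 RPKM in Cas9 Trim71-/-, and 57.2, 57.3 and 56.7 RPKM in Cas9 control libraries. The Tnrc6a Trim71-/- libraries overlapped the Cas9 controls, and the other groups stood apart. The Trim71-/- log2 fold change was 0.37 with Tnrc6a and 0.30 with Cas9, and that of Tnrc6a was -0.29 in Trim71-/- and -0.36 in control cells (edgeR adjusted p from 2.91e-11 to 7.15e-09, SE 0.04 each).

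Tfcp2l1 (chromosome 1, 118627945 to 118685168, ENSMUSG00000026380), the Stat3 target most able to replace LIF when supplied to cells, stood at 89.1, 84.7 and 88.9 RPKM in Tnrc6a Trim71-/-, 55.8, 56.1 and 61.9 RPKM in Tnrc6a control, 94.5, 100.4 and 92.0 RPKM in Cas9 Trim71-/-, and 74.5, 76.2 and 76.9 RPKM in Cas9 control libraries. No 2 groups overlapped, and both Trim71-/- groups were above both controls. The Trim71-/- log2 fold change was 0.60 with Tnrc6a and 0.33 with Cas9 (SE 0.04 each, edgeR adjusted p = 5.4e-17 and 1.25e-09). The Tnrc6a change was -0.13 in Trim71-/- cells (SE 0.04, edgeR adjusted p = 0.00369) and -0.39 in control cells (SE 0.04, edgeR adjusted p = 7.64e-12). Without Cas9 Trim71-/- replicate 2 the first of these was -0.09 and did not pass (adjusted p = 0.0596).

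Tbx3 (chromosome 5, 119670669 to 119684724, ENSMUSG00000018604), a T-box factor that helps keep Nanog on and also acts in endoderm formation, differed from the other members in the order of its groups. It stood at 97.4, 99.3 and 96.0 RPKM in Tnrc6a Trim71-/-, 89.4, 84.6 and 83.8 RPKM in Tnrc6a control, 75.9, 76.0 and 73.3 RPKM in Cas9 Trim71-/-, and 73.6, 70.9 and 69.0 RPKM in Cas9 control libraries. All 6 Tnrc6a libraries lay above all 6 Cas9 libraries, while the Cas9 groups overlapped each other. It rose with Tnrc6a by a log2 fold change of 0.38 in Trim71-/- cells (SE 0.04, edgeR adjusted p = 2.29e-12) and 0.27 in control cells (SE 0.04, edgeR adjusted p = 9.95e-09). The Trim71-/- change was 0.18 with Tnrc6a (SE 0.04, edgeR adjusted p = 4.83e-05) and 0.08 with Cas9, which did not pass (SE 0.04, edgeR adjusted p = 0.0883). The antisense gene Tbx3os1, which overlaps Tbx3, had 1.87 to 5.79 CPM as group means against a mean of 546 CPM for Tbx3. The libraries were stranded, but whether reads were counted by strand is not stated.

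Nr0b1 (chromosome X, 86191764 to 86195947, ENSMUSG00000025056) encodes Dax1, a nuclear receptor without a DNA-binding domain that binds Pou5f1 and Esrrb proteins. Among the members it had the largest Tnrc6a difference. It stood at 61.7, 57.3 and 58.1 RPKM in Tnrc6a Trim71-/-, 43.3, 45.9 and 48.4 RPKM in Tnrc6a control, 106, 108 and 109.8 RPKM in Cas9 Trim71-/-, and 100.2, 109 and 101 RPKM in Cas9 control libraries. The 2 Cas9 groups overlapped and lay far above all Tnrc6a libraries. Nr0b1 was 1.83-fold lower with Tnrc6a in Trim71-/- cells (log2 fold change -0.87, SE 0.04, edgeR adjusted p = 3.12e-21) and 2.25-fold lower in control cells (-1.17, SE 0.04, edgeR adjusted p = 1.17e-25). The Trim71-/- change was 0.36 with Tnrc6a (SE 0.04, edgeR adjusted p = 4.88e-09) and 0.06 with Cas9, which did not pass (SE 0.04, edgeR adjusted p = 0.253). Its promoter, printed above, held none of the motifs searched.

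Prdm14 (chromosome 1, 13113457 to 13127163, ENSMUSG00000042414) encodes a PR-domain zinc finger protein that represses Fgf receptor signalling and the de novo DNA methyltransferases. It stood at 12.7, 11.7 and 12.1 RPKM in Tnrc6a Trim71-/-, 7.46, 7.78 and 7.86 RPKM in Tnrc6a control, 18.2, 17.9 and 19.3 RPKM in Cas9 Trim71-/-, and 15.5, 15.1 and 13.9 RPKM in Cas9 control libraries. The 4 groups were separated, with both Tnrc6a groups below both Cas9 groups. Prdm14 fell with Tnrc6a by 0.60 on the log2 scale in Trim71-/- cells (SE 0.06, edgeR adjusted p = 6.93e-12) and by 0.94 in control cells (SE 0.06, edgeR adjusted p = 4.87e-17). Its Trim71-/- change was 0.66 with Tnrc6a (SE 0.06, edgeR adjusted p = 9.85e-12) and 0.32 with Cas9 (SE 0.06, edgeR adjusted p = 2.71e-05).

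Zfp42 (Rex1; chromosome 8, 43295063 to 43306980, ENSMUSG00000051176), a zinc finger gene derived from Yy1 and widely used as a reporter of the naive state, had the largest Trim71-/- difference of the 10. It stood at 516, 516 and 509 RPKM in Tnrc6a Trim71-/-, 215, 222 and 228 RPKM in Tnrc6a control, 616, 624 and 604 RPKM in Cas9 Trim71-/-, and 334, 344 and 349 RPKM in Cas9 control libraries. No 2 groups overlapped, and both Trim71-/- groups lay above both control groups. The Trim71-/- rise was 2.32-fold with Tnrc6a (log2 fold change 1.21, SE 0.03, edgeR adjusted p = 1.32e-29) and 1.80-fold with Cas9 (0.84, SE 0.03, edgeR adjusted p = 8.5e-24). With Tnrc6a, Zfp42 fell by 0.26 on the log2 scale in Trim71-/- cells (SE 0.03, edgeR adjusted p = 8.8e-09) and by 0.63 in control cells (SE 0.03, edgeR adjusted p = 4.95e-20).

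Zfp42 and Klf2 lie on chromosome 8, whose genes were higher in Trim71-/- cells as a whole, and the other members lie elsewhere. The other 662 genes of that chromosome with a mean level of 5 CPM or more had a median of 0.51 with Tnrc6a and 0.49 with Cas9 on the log2 scale, beside 0.0012 and -0.012 over 11834 genes of the other chromosomes. Zfp42 lay 0.70 above that median with Tnrc6a and 0.35 above it with Cas9, and 2.42% and 6.04% of the chromosome 8 genes lay higher. Klf2 differed from the median by 0.10 with Tnrc6a and by -0.21 with Cas9. For Zfp42 less the chromosome 8 median per library, all 3 Trim71-/- libraries stood above all 3 controls in both conditions (exact permutation test, two-sided, p = 0.1, the smallest that 3 against 3 allow). For Klf2 the exact permutation p was 0.2 with Tnrc6a and 0.1 with Cas9. The part of the chromosome-wide difference in the levels of Zfp42 and Klf2 was not tested. Of the 8 members on other chromosomes, 8 rose with Tnrc6a and 6 with Cas9, where 20% and 17.1% of all genes tested were called higher.

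**Figure D3:**
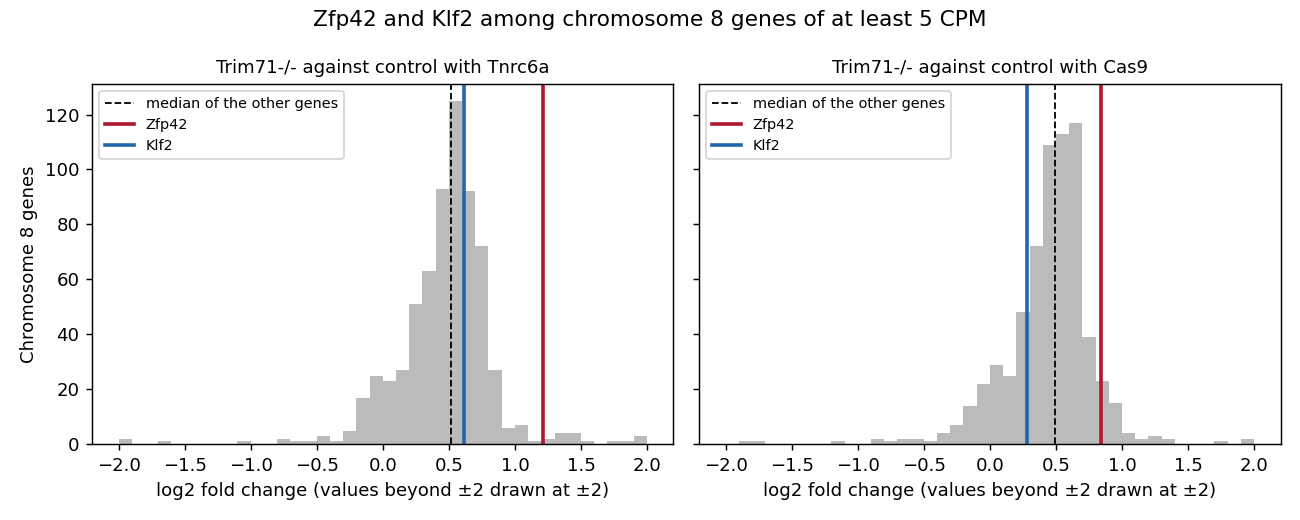
Number of chromosome 8 genes (y axis) by their log2 fold change in Trim71-/- against control cells (x axis), left with Tnrc6a and right with Cas9, for genes of at least 5 CPM, with the median of the genes other than Zfp42 and Klf2 dashed. Zfp42 (red) lies right of the bulk in both panels at 1.21 and 0.84, while Klf2 (blue) lies near the median with Tnrc6a (0.61) and left of it with Cas9 (0.28).

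Processed pseudogenes of 2 members were also listed and may share reads with them. Zfp42-ps1, on chromosome 15, averaged 156 ± 3.59 CPM in Tnrc6a Trim71-/-, 64.9 ± 2.43 CPM in Tnrc6a control, 186 ± 7.20 CPM in Cas9 Trim71-/- and 104 ± 1.38 CPM in Cas9 control libraries (SD, n = 3 each). Nanog-ps1, on chromosome X, averaged 10.4 to 17.3 CPM over the groups. Adding the counts of each copy to its parent gene, an alternative chosen after seeing the data, changed no call of Zfp42 or Nanog.

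The Trim71-/- difference was larger with Tnrc6a than with Cas9 for most members. By the interaction test, 8 of 10 members had a larger Trim71-/- log2 fold change with Tnrc6a and none a smaller one, where 6.93% of genes were called, 4.68% positive and 2.25% negative. The split over all genes depended on scaling, at 958 positive and 461 negative genes with the scaling used, 768 and 613 with relative log expression factors, and 710 and 571 with DESeq2. Without Tnrc6a control replicate 2 the positive count over all genes was 543, without Tnrc6a control replicate 1 it was 548, and without Tnrc6a Trim71-/- replicate 2 it was 584. Under each of these settings 7 or 8 members had a positive call and none a negative one. The members' median was 0.29, beside 0.021 over all genes.

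Esrrb had the largest interaction of the 10, at 0.50 (SE 0.05, edgeR adjusted p = 2.58e-10), followed by Zfp42 at 0.37 (SE 0.05, edgeR adjusted p = 4.51e-07). Prdm14 had 0.34 (SE 0.09, edgeR adjusted p = 0.00837), a call that was lost without Tnrc6a control replicate 1 (0.28, adjusted p = 0.0624). Klf2 had 0.33, Nr0b1 0.30, Nanog 0.27, Klf4 0.26 and Tfcp2l1 0.26 (edgeR adjusted p between 3.81e-05 and 0.00187). For Klf5 the difference was 0.07 (SE 0.05, edgeR adjusted p = 0.505) and for Tbx3 0.11 (SE 0.05, edgeR adjusted p = 0.237). The interaction is the same number seen from either side: for Esrrb, Tnrc6a made a difference of -0.20 in Trim71-/- and of -0.70 in control cells.

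The members' profiles over the 12 libraries were compared by the root-mean-square difference of centred log2 CPM (prior count 2), which describes likeness and carries no test. Among members, Klf4 lay nearest to Tfcp2l1 (0.060) and Nanog (0.062), and Klf2 to Nanog (0.077). Among 10781 genes of at least 5 CPM, the nearest to Zfp42 was its own pseudogene Zfp42-ps1 (0.033) and then Gli1 (0.075). Genes with placeholder names, such as Gm or Rik numbers, were left out of this search. The nearest to Esrrb were Scd1 (0.059) and Fgf4 (0.061), and to Nr0b1 Fzd5 (0.070) and Tdgf1-ps1 (0.081). Klf2 was nearest to Mcm3ap (0.056) and Bcl7a (0.061), and Prdm14 to Itpk1 (0.080) and Lrrc34 (0.083). Klf4 (0.054) and Nanog (0.053) both had Cnot7 among their nearest genes, and Klf4 (0.057) and Tfcp2l1 (0.049) both had Aff1. The remaining neighbours were Kat2a and Tmem209 for Klf5, Tma16 for Nanog, Cdkn1b and Washc2 for Tbx3 and Taf5l for Tfcp2l1, at 0.041 to 0.050. Of these neighbours Cnot7, Tma16 and Taf5l lie on chromosome 8, so the nearest genes of Klf4, Nanog and Tfcp2l1 are among those whose chromosome was higher as a whole in Trim71-/- cells. Each member's own range over the libraries was 0.52 (Tbx3) to 1.53 (Zfp42) on the log2 scale.

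Other genes of the naive state did not share one direction. The list counts here and below stand beside the shares of all genes called in either direction. These were 39.1% for Trim71-/- with Tnrc6a, 36.1% for Trim71-/- with Cas9 and 6.93% for the interaction. For Tnrc6a they were 62.9% in Trim71-/- and 63.5% in control cells, so those counts say little by themselves. Of 16 such genes, 8 rose and 7 fell in Trim71-/- cells with Tnrc6a, and 6 rose and 7 fell with Cas9 (medians 0.065 and -0.12). Fgf4, the autocrine growth factor, averaged 181 CPM in Tnrc6a Trim71-/-, 100.1 CPM in Tnrc6a control, 223 CPM in Cas9 Trim71-/- and 166 CPM in Cas9 control libraries. Its Trim71-/- log2 fold change with Tnrc6a was 0.85, and that of Tet2, a DNA demethylase gene, was 0.84 with Tnrc6a and 0.76 with Cas9. Dppa5a, which encodes a KH-domain protein of stem cells, fell by 0.78 with Tnrc6a and by 0.84 with Cas9 in the same comparisons. With Tnrc6a, 8 of the 16 fell and 5 rose in Trim71-/- cells (median -0.11), and 10 fell and 4 rose in control cells (median -0.32). Gbx2, a homeobox gene downstream of Stat3, fell most in both genotypes, at -1.63 in Trim71-/- and -1.91 in control cells, and Tcl1, an Akt cofactor, had -0.94 and -1.32. In the interaction 8 of the 16 were positive and 2 negative (median 0.23), led by Jam2 at 0.56 and Fgf4 at 0.43.

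Of the general stem cell markers in Trim71-/- cells, 7 of 10 were lower and 3 higher with Tnrc6a, and 7 lower and 2 higher with Cas9 (medians -0.47 and -0.36). Over all genes tested, 20% were higher and 19% lower with Tnrc6a, and 17.1% and 19.1% with Cas9. The 3 that rose with Tnrc6a were Pou5f1, Sox2 and Tdgf1. Their means were 781, 410 and 398 CPM in Tnrc6a Trim71-/- against 709.6, 300 and 291 CPM in Tnrc6a control libraries. With Cas9 the Trim71-/- means of these genes were also above those of the controls. Dnmt3l, a cofactor of de novo DNA methylation, fell by 1.60 with Tnrc6a and by 1.54 with Cas9, and Lin28a, the let-7 binding protein, by 0.91 and 0.69. With Tnrc6a, 9 of 10 were lower and 1 higher in each genotype (medians -0.45 in Trim71-/- and -0.61 in control cells). Pou5f1 fell by 1.00 in Trim71-/- and by 1.05 in control cells, and Fut4, the enzyme that makes the SSEA1 antigen, was the exception at 1.76 and 1.31. In the interaction only 2 were positive, Tdgf1 (0.36) and Sox2 (0.36), and Dppa2 and Lin28a were negative at -0.22 each.

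Of 11 formative and primed epiblast genes tested, 6 fell and 2 rose in Trim71-/- cells with Tnrc6a, and 7 fell and 3 rose with Cas9 (medians -0.49 and -0.28). Lef1, a Wnt effector, had the largest fall, at -2.09 with Tnrc6a and -2.81 with Cas9, from group means of 0.4 to 2.6 CPM. Pou3f1 fell by 1.39 with Tnrc6a and by 1.51 with Cas9, and Dnmt3a, a de novo DNA methyltransferase gene, averaged 79.6 CPM in Tnrc6a Trim71-/-, 116 CPM in Tnrc6a control, 94.1 CPM in Cas9 Trim71-/- and 206 CPM in Cas9 control libraries. Foxd3 went the other way, with a log2 fold change of 0.74 with Tnrc6a. With Tnrc6a, 9 of 11 fell and none rose in Trim71-/- cells and 7 fell and none rose in control cells (medians -0.69 and -0.91), among them Otx2, a homeobox gene of the formative state, at -0.90 and -1.06. Fgf5 was not analysed here.

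The LIF pathway, which supplies the Stat3 signal to Klf4 and Tfcp2l1, was mixed. In Trim71-/- cells 3 of 12 genes rose and 6 fell with Tnrc6a, and 3 rose and 5 fell with Cas9. Gab1, the adaptor, rose by 0.64 with Tnrc6a and by 0.77 with Cas9, while Il6st, which encodes the receptor chain gp130, fell by 0.40 and by 0.67. The changes of Gab1 and the other list genes were not set beside a chromosome median, as those of Zfp42 and Klf2 were. With Tnrc6a, 4 rose and 6 fell in Trim71-/- cells and 6 rose and 5 fell in control cells. Lif averaged 17.1 CPM in Tnrc6a Trim71-/- and 14.9 CPM in Tnrc6a control libraries, against 5.2 CPM in Cas9 Trim71-/- and 5.9 CPM in Cas9 control libraries. Its receptor gene Lifr averaged 44.2 and 57.7 CPM in those Tnrc6a groups, against 103 and 104 CPM in the Cas9 groups, so ligand and receptor differed in opposite directions (log2 fold changes 1.71 and -1.22 in Trim71-/- cells, 1.33 and -0.85 in control cells). Pim1, a Stat3 target kinase gene, rose with Tnrc6a by 0.80 in Trim71-/- and 1.05 in control cells, and its relative Pim3 fell by 0.83 and 0.91. In Trim71-/- against control cells Pim1 fell, by 0.75 with Tnrc6a and by 0.50 with Cas9.

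Of 14 repressors of the naive factors, 8 fell and 2 rose in Trim71-/- cells with Tnrc6a, and 4 fell and 1 rose with Cas9 (medians -0.13 and -0.069). Hdac2, a deacetylase of the NuRD complex, was the gene that rose in both, by 0.76 and 0.88. Tle4, a corepressor, fell by 0.33 and 0.35. With Tnrc6a, 10 fell and 2 rose in Trim71-/- cells and 9 fell and 2 rose in control cells. Over all genes tested, 30.9% and 33.1% were lower in these comparisons. Mbd3, another NuRD subunit, was among those that fell, at -0.81 and -0.76. None of the 14 was called in the interaction.

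Of 23 tested relatives of the members by gene family, 6 rose and 7 fell in Trim71-/- cells with Tnrc6a, and 5 rose and 8 fell with Cas9 (medians -0.078 and -0.057). With Tnrc6a 10 rose and 6 fell in each genotype (medians 0.086 and 0.092 in Trim71-/- and control cells), beside 62.9% and 63.5% of all genes called in these comparisons, so the counts say little about the relatives. Klf6 averaged 122 CPM in Tnrc6a Trim71-/- and 149 CPM in Tnrc6a control libraries against 48.5 CPM in Cas9 Trim71-/- and 40.5 CPM in Cas9 control libraries, opposite in direction to Klf4 and Klf5 in control cells. In the interaction 1 relative was positive, Klf12 at 0.40, and 1 negative, Klf6 at -0.55. Esrrg and Nr0b2 were not analysed here.

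**Figure D4:**
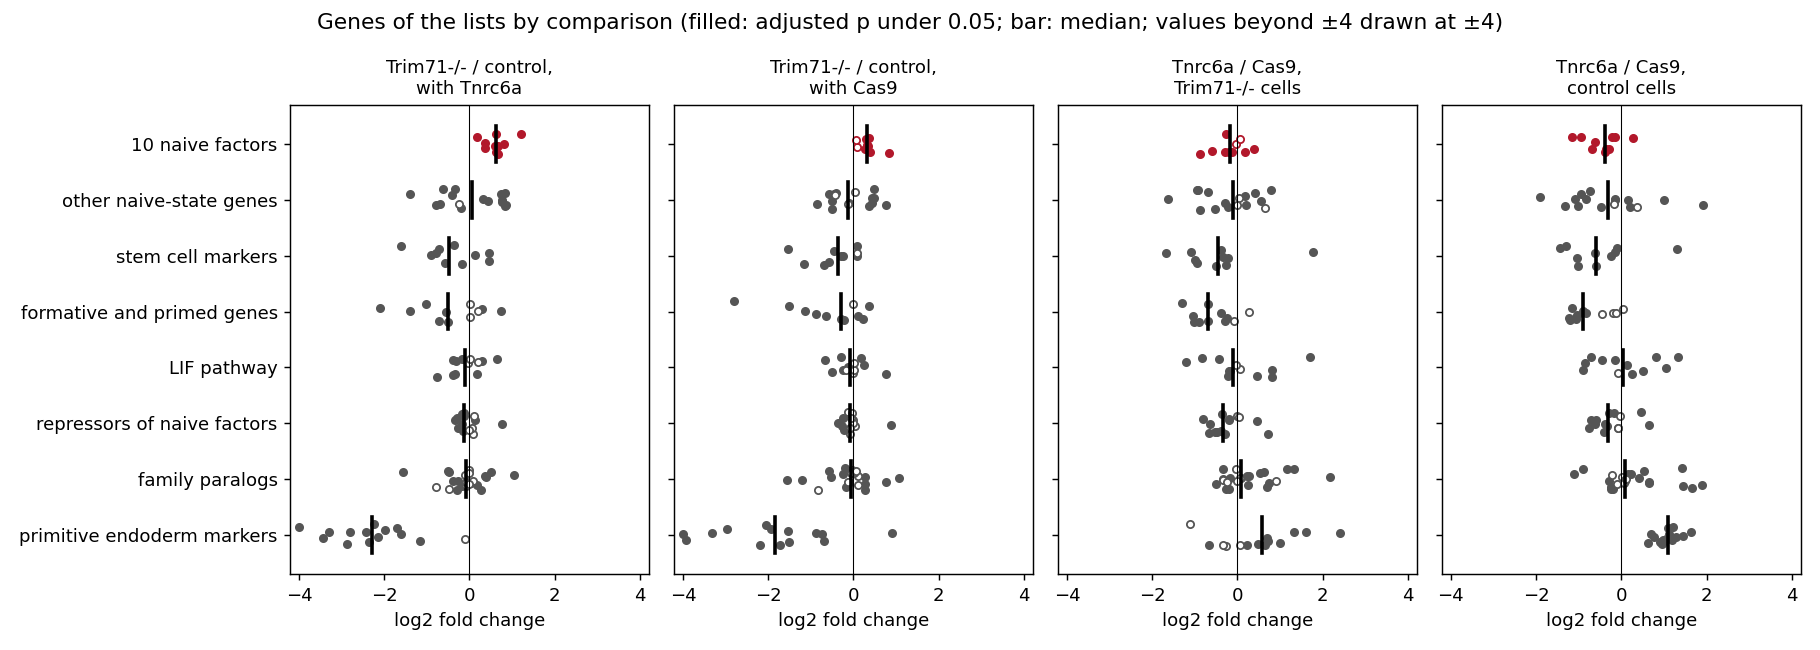
Log2 fold change (x axis) of each tested gene in 8 lists (rows) for the 4 comparisons (panels), filled where adjusted p is under 0.05, with a bar at the median of each list and values beyond 4 drawn at 4. The 10 naive factors lie above 0 in the left 2 panels with medians of 0.61 and 0.32, where the primitive endoderm markers lie mostly below 0.

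Markers of other cell types moved with the same comparisons. Primitive endoderm markers summed to 527 to 550.1 CPM in Tnrc6a Trim71-/- libraries against 1695 to 1831 CPM in Tnrc6a control, and to 359 to 365 CPM in Cas9 Trim71-/- against 896 to 932 CPM in Cas9 control libraries. Of the 14, 13 fell in Trim71-/- cells with Tnrc6a, and 13 fell and 1 rose with Cas9. With Tnrc6a, 9 rose and 1 fell in Trim71-/- cells and 14 rose in control cells. Among these, Gata6, a transcription factor that opposes Nanog in the early embryo, fell by 3.93 in Trim71-/- cells with Cas9 and rose by 2.42 with Tnrc6a in Trim71-/- cells and by 1.28 in control cells. The order of groups by these sums (Tnrc6a control, Cas9 control, Tnrc6a Trim71-/-, Cas9 Trim71-/-) is the reverse of the order of the members' summed levels. Sums weight abundant genes, such as Sparc at 269 CPM and Col4a1 at 128 CPM in Tnrc6a Trim71-/- libraries. In the members' sum, Zfp42 on chromosome 8 (967 CPM) and Esrrb (910.2 CPM) weighed most in these libraries. Single genes departed from these orders. For example, Cubn, Lrp2, Sox7 and Hnf4a averaged less in Tnrc6a Trim71-/- than in Cas9 Trim71-/- libraries, and the members Nanog, Klf2 and Tbx3 averaged more.

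The 9 tested markers of 2-cell-like cells summed to 191 to 205 CPM in Tnrc6a Trim71-/-, 537 to 559 CPM in Tnrc6a control, 1.61 to 2.35 CPM in Cas9 Trim71-/- and 23.92 to 24.995 CPM in Cas9 control libraries. All 9 fell in Trim71-/- cells in both conditions and rose with Tnrc6a in both genotypes. The 7 trophoblast markers summed to 146 to 149 CPM in Tnrc6a Trim71-/-, 251 to 286 CPM in Tnrc6a control, 49.2 to 52.6 CPM in Cas9 Trim71-/- and 53.5 to 55.1 CPM in Cas9 control libraries, with 5 and 7 of them higher with Tnrc6a in Trim71-/- and control cells. Fibroblast markers (3 tested) summed to 7.44 to 17.4 CPM over all libraries. The 7 neural and mesoderm markers tested summed to 202.9 to 207.9 CPM in Tnrc6a Trim71-/- and 156.9 to 159.6 CPM in Tnrc6a control libraries. With Cas9 these 7 summed to 162.8 to 180.1 CPM in Trim71-/- and 143.7 to 147.5 CPM in control libraries. Of the markers listed, none was at 0 in a whole group; the table's lowest gene had 46 counts, and Col3a1, Postn, Dcn, Lum, Dux, Elf5, Neurog2 and Mesp1 were not analysed here. The part of other cell types in the members' differences was not tested.

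Since Tnrc6a serves microRNAs, the longest annotated 3' UTR of each member was searched for the seed sites of 4 families that mouse stem cells or their derivatives use. The mature RefSeq sequences (GRCm38.p6) are shown with the seed, bases 2 to 8, in capitals, because those bases define the sites. The seeds of the first pair overlap by a shift of 1 base.
mmu-miR-294-3p: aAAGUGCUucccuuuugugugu
mmu-miR-17-5p: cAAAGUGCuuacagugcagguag
mmu-let-7a-5p: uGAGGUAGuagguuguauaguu
mmu-miR-92a-3p: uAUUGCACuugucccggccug

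Of the 10 members, 4 held a site for the miR-92a seed, 1 each for the miR-294, miR-17 and let-7 seeds, and Nanog, Zfp42, Nr0b1 and Prdm14 had none of the 4. Over 14874 genes with an annotated 3' UTR, 7.20% held the miR-92a site, 16.7% the miR-294 site, 13.7% the miR-17 site and 10.3% the let-7 site. These shares were not matched for UTR length, whose median over the genes was 1119 bases. Of the members with a miR-92a site, Tfcp2l1 had a UTR of 7734 bases, Klf5 1841, Klf4 982 and Klf2 737. The sites are printed with 22 bases of the UTR each, the match in capitals, so that they can be set beside the seeds.
Klf2, miR-92a site at chr8:72321133-72321139, plus strand: ttttcaaaatgGTGCAATaatt
Klf4, miR-92a site at chr4:55527368-55527374, minus strand: tggtttcagatGTGCAATaatt
Klf5, miR-92a site at chr14:99305148-99305154, plus strand: ataaaagaagtGTGCAATtgca
Tfcp2l1, miR-92a site at chr1:118683730-118683736, plus strand: agaagtagaagGTGCAATcaga
Tfcp2l1, miR-294 site at chr1:118683205-118683211, plus strand: ctcgatggccgAGCACTTccca
Tbx3, miR-17 site at chr5:119683161-119683167, plus strand: aatctgccagtGCACTTTgtta
Esrrb, let-7 site at chr12:86519682-86519688, plus strand: gcttcctgcccCTACCTCagcc

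In Klf2, Klf4 and Esrrb the match is followed by an A, which makes it an 8mer. The Klf5 site lies in an isoform that ends early, 9882 bases before the end of the gene. A seed match is a description of letters, binding was not measured, and the part of microRNAs in the members' differences was not tested.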

How the data were processed

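The 12 libraries were made from total RNA with a stranded TruSeq kit, per the labels. Per the submitters' processing notes, bcl2fastq 2.20 and STAR 2.7.3a were used with GRCm38 and mm10. The deposited table holds unnormalized counts and, made by the authors, RPKM values. Each library's deposited RPKM was its counts over the gene length and over 0.935 to 1.08 of its total count. The gene length column carries the name quasr, per the file headers, and the strand and multi-mapping settings of the counting are not stated. The gene of lowest depth in the table had 46 counts over the 12 libraries, and precision is given by the spread of 3 wells.

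Counts were tested in R 4.3.3 with edgeR 4.0.16 (filterByExpr by group, trimmed mean of M values, robust quasi-likelihood fit of all 12 libraries with 1 mean per group). Tests were two-sided, with Benjamini-Hochberg adjustment over 20486 genes and a threshold of 0.05. SE is that of the log2 fold change, taken from the F statistic. CPM values carry the same scaling factors. RPKM was used for levels between genes. The fit was tested on simulated data. No 2 libraries agreed within counting noise.

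The members and lists were chosen with earlier results of these data known. Most named list genes are among up to 4 per comparison with the largest called change and a mean of at least 1 CPM. Not all of these are named. Some others are named as examples, such as Pou5f1, Sox2 and Tdgf1 for Trim71-/- against control, and Sparc and Hnf4a. Gene positions are from GENCODE M21 (GRCm38). Alternatives were relative log expression factors, factors without chromosome 8, no filter or 1 CPM in 6 libraries, limma-voom (limma 3.58.1), DESeq2 1.42.0, a replicate block, only the 2 groups compared, and each library left out. Replicate numbers did not pair the libraries. The result of 1 list gene is not reported here.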

Additional observations from a re-analysis of the deposited data

Results flagged for a closer look

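For 8 of the 10 factors the Trim71-/- difference depended on the construct, by the interaction test over all genes (edgeR adjusted p under 0.05, where 6.93% of genes were called). The Trim71-/- log2 fold change with Tnrc6a exceeded that with Cas9 by 0.50 for Esrrb, 0.37 for Zfp42, 0.34 for Prdm14, 0.33 for Klf2, 0.30 for Nr0b1, 0.27 for Nanog, 0.26 for Klf4 and 0.26 for Tfcp2l1. Klf5 (0.07) and Tbx3 (0.11) did not pass.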

How the results depend on the processing

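With a block for the replicate number, the numbers of members called stayed at 10 (Trim71-/- with Tnrc6a), 8 (Trim71-/- with Cas9), 8 (Tnrc6a in Trim71-/- cells), 10 (Tnrc6a in control cells) and 8 (interaction), and no member's call changed. Same-numbered libraries correlated at -0.23 to 0.14 in their deviations, so the numbers do not pair them. Leaving out each library gave 10, 8 to 9, 7 to 9, 10 and 7 to 8 members called in these comparisons. No member's fold change turned its sign under any setting run. Besides the changes given with Nanog, Klf4, Tfcp2l1 and Prdm14, Tbx3 in Trim71-/- cells with Cas9 was called with scaling factors computed without chromosome 8 (0.10, adjusted p = 0.0325), without Cas9 Trim71-/- replicate 3 (adjusted p = 0.0375), without Tnrc6a control replicate 1 (adjusted p = 0.0441) and without Tnrc6a Trim71-/- replicate 2 (adjusted p = 0.0464). Over all its settings its adjusted p ran from 0.0325 to 0.322. Relative log expression factors, limma-voom and no filter changed no call of a member. With a minimum of 20 CPM, Zfp42 less the chromosome 8 median under Tnrc6a in Trim71-/- cells was -0.19 in place of -0.22. The interaction could not be fitted on only 2 groups. Depth limits little here, since the lowest member, Prdm14, had 550 counts or more in each library.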
